A study of Mus musculus with 13 samples.

Results

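The proteasome genes were described in S1 segments of the mouse kidney, the first stretch of the proximal tubule. Members were taken by symbol: every gene named by 1 symbol on the array that starts with Psma, Psmb, Psmc, Psmd or Psme and a digit, without the immunoproteasome genes Psmb8, Psmb9 and Psmb10. This gave 41 of 22180 genes tested. They were 15 genes of the core particle, 20 assigned to the regulatory particle and 4 activators. Those 20 include 3 assembly chaperones, Psmd5, Psmd9 and Psmd10, kept there by symbol. The remaining 2, Psmc3ip and Psme3ip1, fit the letters of the rule but encode no subunit and were left out of these sets. Psma4 was not analysed here, because its probe sets carry a second symbol.

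The samples were S1 tubules of male C57Bl/6J mice, hybridised to 13 arrays in 3 groups. Control mice (4 arrays, titled sham) received saline. Mice of the LPS group (4 arrays) received 5 mg/kg lipopolysaccharide (LPS), an endotoxin that triggers inflammation, by peritoneal injection, and their samples date from 24 h later. Mice of the LPS/LPS group (5 arrays) received 0.25 mg/kg first and 5 mg/kg 24 h later, and the labels place their samples 24 h after the large dose. No transgene or deletion is named, the age is not given in the sources used here, and whether the arrays stand for separate animals is not stated in the labels. The p-values therefore measure only the spread between these samples, which may be technical. S1 tubules are bulk material, so fewer cells of a type and less RNA per cell cannot be told apart.

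The proteasome is the protease that degrades ubiquitin-tagged proteins in the cytosol and nucleus. Its core particle is a barrel of alpha rings, which control entry, and beta rings, which hold the catalytic sites. The regulatory particle caps the barrel: a ring of ATPases (Psmc genes) unfolds the substrate, and non-ATPase subunits (Psmd genes) bind ubiquitin, remove it and hold the cap together. Proximal tubule cells reabsorb filtered protein, which is degraded mainly in lysosomes, while the proteasome serves proteins of the cell's own. When proteasome activity falls short, the transcription factor NRF1 (gene Nfe2l1) raises transcription of the subunit genes. Interferon induces the immunoproteasome subunits, which take the place of the catalytic ones.

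Values are the deposited log2 expression values, and differences are log2 differences from 1 limma fit of all 13 arrays with the standard error (SE). Adjusted p-values are Benjamini-Hochberg over the 22180 genes, with a threshold of 0.05. Most members gave weak signals. Their mean levels ran from 2.27 for Psmd14 to 6.42 for Psme2, and 12 of 41 lay above 4.77, the 95th percentile of 1105 olfactory receptor genes, which serve here as a reference for genes with little expression in kidney. Sizes of change for the other 29 are uncertain. A second limit is that 17 of 41 members (41.5%, against 50.6% of all genes) have an identical value on at least 2 arrays. Psmb6 and Psmd12 each repeat 1 value on 5 arrays.

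LPS replicate 3 stood apart for markers of other cells. It averaged 5.67 over 8 marker genes of later nephron segments (loop, distal tubule, collecting duct), where the other 12 arrays lay between 3.75 and 4.16. Only 1 of those 8 markers exceeded the reference in its average over the 13 arrays. The same array had the highest mean of the 16 S1 and S2 markers (6.19, against 4.67 to 6.12 elsewhere), of which 9 lay above the reference. Slc5a2, the glucose transporter that defines the segment, had a mean of 4.27, below it. Macrophage markers (8, of which 0 lay above the reference) had a mean of 4.14 on LPS replicate 3 and of 3.72 to 3.97 on the other arrays. Array means of the S1 and S2 markers were 5.22 to 6.12 in control, 4.76 to 6.19 in LPS and 4.67 to 5.30 in LPS/LPS. Medians of the members and many single differences are therefore also given without LPS replicate 3. Values of the LPS group given without such a remark include that array.

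Markers of endothelium differed in level between treated and control arrays. The means of 6 such genes, of which 0 lay above the reference, were 3.75 to 3.90 on control arrays, 3.94 to 4.32 on LPS arrays and 3.94 to 4.09 on LPS/LPS arrays, so both treated groups lay above every control array. The 4.32 was that of LPS replicate 3, and the other LPS arrays, up to 4.25, also lay above control. Pecam1, an adhesion protein of endothelial cells, differed by 0.75 (SE 0.27, limma adjusted p = 0.685) in LPS vs control, and Cdh5, their cadherin, by 0.53 (SE 0.21, limma adjusted p = 0.719). The part of these and the other marker differences in the results was not tested.

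On the mean of the regulatory particle the treated groups did not overlap. Averaged over its 20 genes, the log2 value of each array was 4.02, 3.93, 3.88 and 3.83 in control replicates 1 to 4. It was 4.01, 4.11, 4.33 and 4.16 in LPS replicates 1 to 4, and 3.79, 3.89, 3.82, 3.90 and 3.78 in LPS/LPS replicates 1 to 5. Every LPS array lay above every LPS/LPS array, with or without LPS replicate 3, and the control arrays overlapped both groups. Whether means of other gene sets of this size separate the groups was not examined. The median LPS/LPS vs LPS difference was -0.36 over cytosolic ribosomal protein genes, against -0.31 over the regulatory particle. Over the 15 core genes the corresponding values were 4.15, 4.33, 4.22 and 4.18 in control, 4.29, 4.39, 4.89 and 4.16 in LPS, and 4.09, 4.27, 4.30, 4.03 and 3.87 in LPS/LPS. The core values overlapped between all groups, and LPS replicate 3 was highest. The activators, at 4.63 to 4.97 in control, 4.61 to 4.79 in LPS and 4.58 to 5.08 in LPS/LPS, overlapped throughout. The spread between arrays of a group was wider for core genes (median SD 0.46) than for regulatory genes (0.28) or all genes (0.28).

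**Figure D1:**
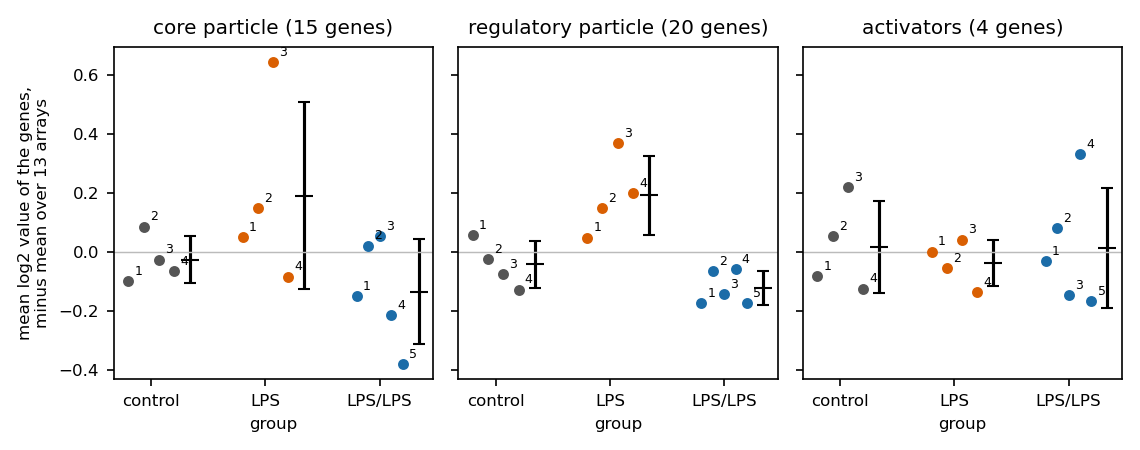
Mean log2 value of the core, regulatory and activator genes on each array, minus its mean over the 13 arrays (y axis), by group (x axis). Points are arrays with their replicate number, and bars are the group mean ± SD. The regulatory values of the 4 LPS arrays all lie above those of the 5 LPS/LPS arrays, and LPS replicate 3 is the highest array for the core.

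LPS replicate 3 was also where single members peaked. Of 41 members, 15 had their highest value of all arrays there, 9 of 15 core and 6 of 20 regulatory genes, and 0 had their lowest there. LPS/LPS replicate 5 had the lowest value of 8 members, the most of any array. Psma3, an alpha ring gene, read 3.00, 3.21, 3.22 and 3.21 in control, 2.88, 3.58, 4.83 and 3.43 in LPS and 3.06, 2.88, 3.13, 3.21 and 3.21 in LPS/LPS, in order of replicate number here and in all such lists. Only LPS replicate 3 was far from the other arrays for this gene. Psmb2, of the beta ring, read 3.65, 3.15, 3.75 and 3.15 in control, 3.32, 3.39, 4.75 and 2.43 in LPS and 2.98, 3.16, 3.09, 2.83 and 2.86 in LPS/LPS, and LPS held both its highest and its lowest array.

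**Figure D2:**
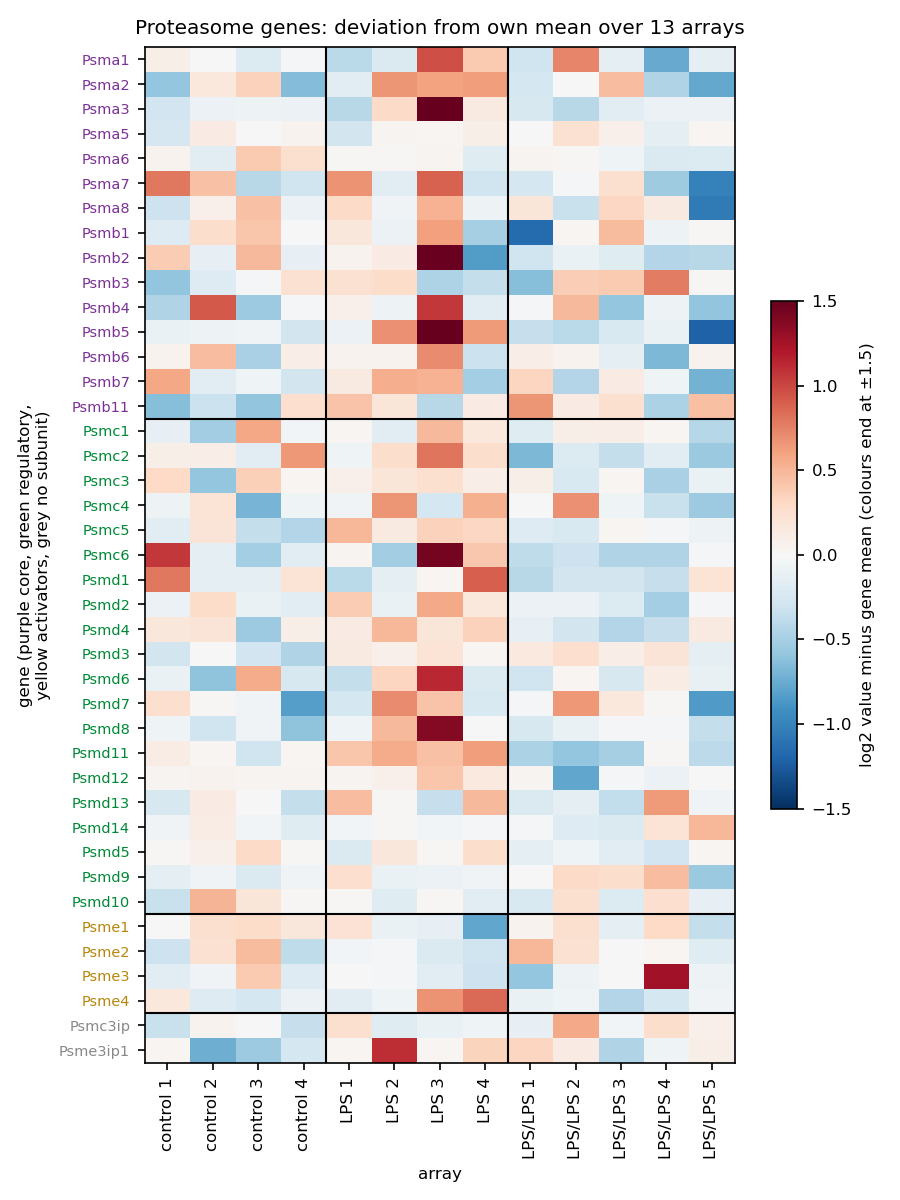
Deviation of each of the 41 genes (rows, ordered by particle and role) from its own mean over the 13 arrays (columns), in log2 units, with colours ending at 1.5 in either direction. The column of LPS replicate 3 holds the highest value of 15 genes, and most LPS/LPS columns are pale or blue in the regulatory rows.

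The first question is how these genes stand after 1 dose of LPS compared with saline. Most differences were positive and small: 32 of 41 (78.0%) were above 0, against 47.1% of all genes, with a median of 0.15 where the median of all genes was -0.02. The endothelial markers were also higher on these LPS arrays, all 6 of 6 with a positive difference and a median of 0.16. No member passed the threshold by limma, nor did any gene of the table (0% called). At an unadjusted p under 0.05, 6 members were higher (14.6%, against 3.49% of all genes) and 0 lower (against 2.95%). Psmd11, Psmc5, Psmd8, Psmd3 and Psmb5 were the subunits among the 6, and Psme3ip1 was the sixth. All members were read from the same arrays, so their number does not count independent changes.

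By particle, the median difference was 0.14 over the core, with 12 of 15 genes above 0, and 0.28 over the regulatory particle, with 17 of 20 above 0. Without LPS replicate 3 these medians were -0.03 and 0.12, and that of all members was 0.04 with 25 of 41 above 0 (61.0%, against 49.0% of all genes in that fit). At an unadjusted p under 0.05, 6 members (14.6%, against 3.38% of all genes) were then higher. They were not the same 6: Psmb5 was no longer among them (limma unadjusted p = 0.054). Psmb11, a thymus form with a level below the reference, took its place (limma unadjusted p = 0.0496). The core median thus changed sign with 1 array, and the regulatory median was smaller but still positive. All 6 ATPase genes had positive differences, from 0.13 to 0.51, but only 4 of 6 without LPS replicate 3. Of the 3 assembly chaperones named Psmd, which help build the regulatory particle, Psmd5 (-0.04) and Psmd10 (-0.18) had negative and Psmd9 (0.12) a positive difference.

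Psmd11, a lid subunit that clamps the cap to the barrel, had the lowest p of the members. It read 4.61, 4.54, 4.21 and 4.54 in control, 4.92, 5.06, 4.95 and 5.13 in LPS and 4.03, 3.92, 4.00, 4.51 and 4.11 in LPS/LPS. Every LPS array lay above every array of the other groups, while control and LPS/LPS overlapped. The difference of LPS from control was 0.54 (SE 0.15, limma adjusted p = 0.489), and 0.56 without LPS replicate 3. Psmd3, another lid gene, read 3.77, 4.04, 3.76 and 3.60 in control, 4.18, 4.12, 4.25 and 4.08 in LPS and 4.18, 4.29, 4.14, 4.24 and 3.91 in LPS/LPS. Here LPS did not overlap control either, with a difference of 0.36 (SE 0.13, limma adjusted p = 0.677), and 4 of 5 LPS/LPS arrays lay as high as LPS. These were the only 2 members (4.88%) whose LPS arrays all lay above control, a pattern of 1.55% of all genes. In the opposite direction there were 0 members, against 1.6% of all genes.

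Psmb5 carries the chymotrypsin-like site of the core, the main target of proteasome inhibitor drugs. Its values were 5.42, 5.45, 5.48 and 5.25 in control, 5.44, 6.21, 7.09 and 6.16 in LPS and 5.18, 5.12, 5.30, 5.43 and 4.31 in LPS/LPS. The controls were close together, 3 of 4 LPS arrays lay above them, and LPS replicate 1 lay among them. Its difference in LPS vs control was 0.82 (SE 0.29, limma adjusted p = 0.673), or 1.77-fold, and 0.54 without LPS replicate 3.

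The other catalytic genes had smaller differences. Psmb6, of the caspase-like site, read 4.01, 4.42, 3.47 and 4.05 in control, 4.01, 4.01, 4.67 and 3.64 in LPS and 4.06, 4.01, 3.82, 3.28 and 4.01 in LPS/LPS. Psmb7, of the trypsin-like site, read 5.22, 4.47, 4.58 and 4.37 in control, 4.78, 5.19, 5.16 and 4.14 in LPS and 4.96, 4.21, 4.76, 4.58 and 3.93 in LPS/LPS. Their LPS vs control differences were 0.09 (SE 0.25, limma adjusted p = 0.958) and 0.16 (SE 0.28, limma adjusted p = 0.937), and all groups overlapped. Without LPS replicate 3 the Psmb6 difference was -0.10.

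Psmc5, an ATPase of the cap, read 4.87, 5.23, 4.69 and 4.60 in control, 5.54, 5.17, 5.39 and 5.35 in LPS and 4.85, 4.81, 5.07, 5.01 and 4.96 in LPS/LPS. One control array, replicate 2, reached into the LPS range. The difference was 0.51 (SE 0.15, limma adjusted p = 0.54), and 0.51 without LPS replicate 3. Psmd8, a lid gene, read 3.85, 3.62, 3.87 and 3.32 in control, 3.85, 4.40, 5.30 and 3.93 in LPS and 3.68, 3.83, 3.89, 3.89 and 3.56 in LPS/LPS. Its difference of 0.71 (SE 0.26, limma adjusted p = 0.685) was 0.40 without LPS replicate 3, the highest array for this gene.

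Among alpha ring genes, Psma2 read 3.98, 4.72, 4.92 and 3.92 in control, 4.41, 5.23, 5.17 and 5.20 in LPS and 4.31, 4.57, 5.02, 4.11 and 3.80 in LPS/LPS. Its LPS vs control difference was 0.62 (SE 0.29, limma adjusted p = 0.768), with overlap of the groups. Psma3 differed by 0.52 (SE 0.29, limma adjusted p = 0.789), and by 0.13 without LPS replicate 3. Psmd14, which encodes the deubiquitinase of the lid and whose probe set gave the weakest signal of the members, read 2.22, 2.37, 2.23 and 2.09 in control, 2.22, 2.29, 2.22 and 2.24 in LPS and 2.24, 2.07, 2.06, 2.47 and 2.76 in LPS/LPS. Its differences of 0.02, 0.09 and 0.08 in the 3 comparisons (LPS vs control, LPS/LPS against control and LPS/LPS against LPS) were within their errors.

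The comparison of LPS/LPS with LPS asks how samples after the large dose differ with and without the small first dose. It shares the LPS arrays with the comparison above, so an array that is high in LPS raises one difference and lowers the other. No group received the small dose alone. An altered response to the large dose and a lasting effect of the small dose itself therefore cannot be told apart. Most members were lower in LPS/LPS: 31 of 41 differences (75.6%) were below 0, against 40.7% of all genes, and their median was -0.30, against 0.05 for all genes. At an unadjusted p under 0.05, 9 members were lower (22.0%, against 4.49% of all genes) and 0 higher (against 4.13%). These shares were not particular to the proteasome genes. Of 67 cytosolic ribosomal protein genes 76.1% were below 0, with 25.4% lower and 4.48% higher at that p. Of 47 translation initiation factor genes 74.5% were below 0, with 17% lower and 0% higher. By limma 1 member, Psmd11, passed the threshold, out of 14 genes called in all (0.0631%), which were all lower. The arrays of both groups did not overlap for Psmd11, Psmb5, Psmc2 and Psmc5, or 9.76% of members against 1.3% of all genes. In the other direction it was 0 members against 1.1% of all genes. Cell markers differed between the same groups. The 16 S1 and S2 markers had a median of -0.43, with 1 above 0. The 8 markers of later nephron segments, high on LPS replicate 3, had a median of -0.48, with 0 above 0. Medians were -0.07 for the endothelial and 0.03 for the macrophage markers. The part of these differences in those of the members was not tested.

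Psmd11 fell by 0.90 (SE 0.14, limma adjusted p = 0.0337), from 5.01 ± 0.10 (SD, n = 4) in LPS to 4.11 ± 0.23 (SD, n = 5) in LPS/LPS. It ranked eleventh of all genes by p. Its mean over all arrays, 4.50, is below the olfactory receptor reference of 4.77, so the size of the change is uncertain and no fold is given. The call was lost on leaving out 9 of the 13 arrays one at a time: control replicate 2 or 4, LPS replicate 2, 3 or 4, or LPS/LPS replicate 1, 2, 3 or 5. Adjusted p-values ran from 0.0183 to 0.124 over the 13 and the difference from -0.998 to -0.85. It was -0.92 without LPS replicate 3 (adjusted p = 0.0795).

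Psmb5 had the largest difference of the members in size, -1.16 (SE 0.28, limma adjusted p = 0.2), 2.23-fold, from 6.22 ± 0.67 (SD, n = 4) to 5.07 ± 0.44 (SD, n = 5). It did not pass the threshold. LPS replicate 1, at 5.44, was only just above LPS/LPS replicate 4, at 5.43, and the groups were otherwise apart. Without LPS replicate 3 the difference was -0.87 (adjusted p = 0.473), and without LPS replicate 1 it was -1.42 (adjusted p = 0.035). Psmb6 (-0.24, SE 0.23, limma adjusted p = 0.798) and Psmb7 (-0.33, SE 0.26, limma adjusted p = 0.751) also did not pass, and their groups overlapped.

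Psmc2, an ATPase, read 4.25, 4.26, 4.00 and 4.81 in control, 4.09, 4.43, 4.96 and 4.43 in LPS and 3.49, 3.96, 3.81, 4.01 and 3.61 in LPS/LPS. The LPS/LPS arrays were low, and LPS did not stand above control. The difference of LPS/LPS from LPS was -0.70 (SE 0.20, limma adjusted p = 0.322), and -0.54 without LPS replicate 3. A second probe set of Psmc2, with a mean level of 3.91, had a difference of 0.17 (unadjusted p = 0.705), so the 2 probe sets disagreed in direction. Psma5, the other member with a second probe set, differed in LPS/LPS vs LPS by 0.07 on the one used and by 0.15 on the other. Psmc5 differed by -0.42 (SE 0.14, limma adjusted p = 0.431), and by -0.41 without LPS replicate 3.

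**Figure D3:**
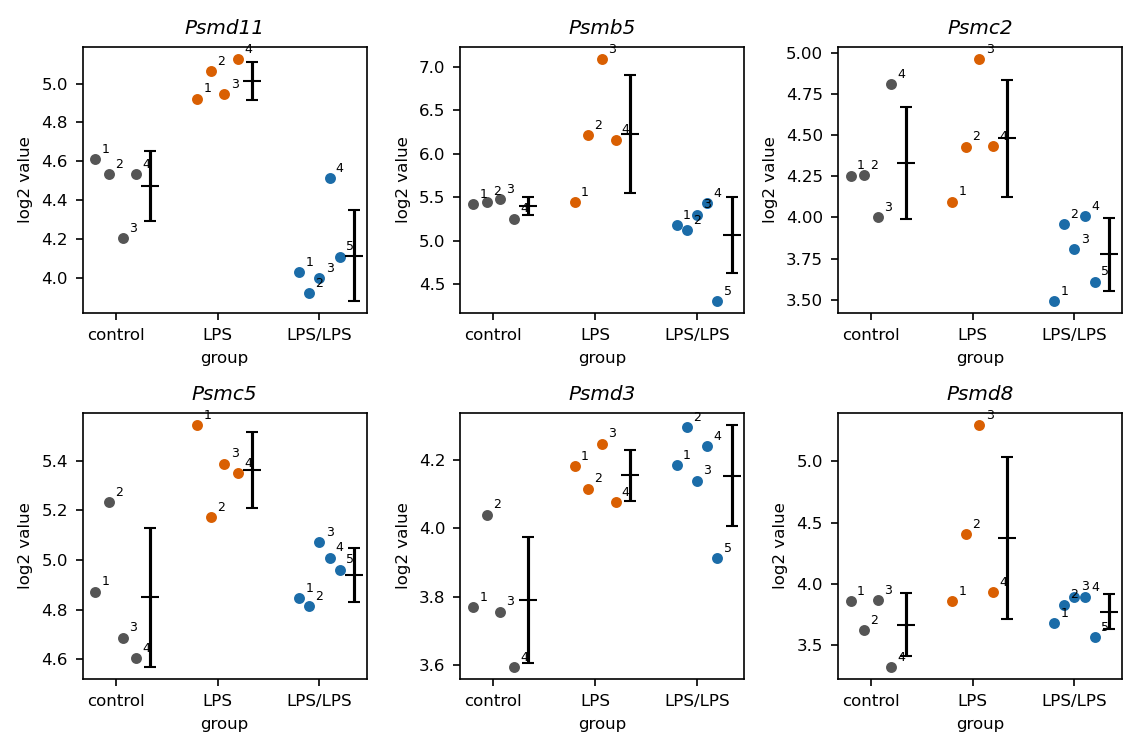
Log2 values of 6 regulatory and core genes on each array (y axes differ), by group, with the replicate number at each point and bars for the group mean ± SD. LPS and LPS/LPS arrays do not overlap for Psmd11, Psmb5, Psmc2 and Psmc5, while 4 of 5 LPS/LPS arrays of Psmd3 are as high as those of LPS.

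The promoters of the 4 genes whose LPS and LPS/LPS arrays did not overlap are shown to let their sequence be set beside their values. They are the 250 bases before the transcription start from RefSeq (build GRCm38.p6), for Psmc2 the first of its 2 listed starts, with Psmb5 on the minus strand and the others on the plus strand. In order they lie at chr11:80428365-80428614, chr14:54617996-54618245, chr5:21785025-21785274 and chr11:106255935-106256184. Capitals mark matches, on either strand, to the core of the antioxidant response element bound by NRF1 and NRF2 (TGACNNNGC), the CCAAT box (CCAAT), an ETS factor site (CCGGAAG) or the TATA box (TATAAA).
Psmd11: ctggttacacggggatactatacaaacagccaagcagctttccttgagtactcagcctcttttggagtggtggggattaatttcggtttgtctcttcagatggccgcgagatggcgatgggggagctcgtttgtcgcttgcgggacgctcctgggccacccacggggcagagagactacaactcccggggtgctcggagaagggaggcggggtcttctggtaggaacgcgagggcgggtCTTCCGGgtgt
Psmb5: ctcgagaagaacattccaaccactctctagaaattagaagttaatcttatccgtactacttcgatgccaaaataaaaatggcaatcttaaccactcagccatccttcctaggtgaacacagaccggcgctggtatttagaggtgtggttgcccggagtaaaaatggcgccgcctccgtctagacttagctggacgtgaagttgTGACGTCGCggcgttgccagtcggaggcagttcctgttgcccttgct
Psmc2: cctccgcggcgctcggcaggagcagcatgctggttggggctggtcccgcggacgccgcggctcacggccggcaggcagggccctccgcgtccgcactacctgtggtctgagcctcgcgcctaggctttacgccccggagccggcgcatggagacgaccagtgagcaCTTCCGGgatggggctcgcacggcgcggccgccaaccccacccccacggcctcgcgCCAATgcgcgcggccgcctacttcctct
Psmc5: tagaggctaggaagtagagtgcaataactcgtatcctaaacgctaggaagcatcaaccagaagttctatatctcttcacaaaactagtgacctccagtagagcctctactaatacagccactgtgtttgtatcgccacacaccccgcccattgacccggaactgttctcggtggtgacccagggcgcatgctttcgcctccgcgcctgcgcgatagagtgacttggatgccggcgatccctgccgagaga
Psmd11 holds an ETS match on the minus strand, whose first base lies at -11 from the start. Psmb5 holds an antioxidant response element match at -47, Psmc2 an ETS match at -84 and a CCAAT box at -28, and Psmc5 none of the 4. No match is common to all 4, and Psmd11 and Psmc2 share the ETS letters.

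Promoters were found for 34 of the 41 members, 38 in all, of 300 bases each from 250 before to 50 after the start. The 7 members without an entry were Psma8, Psmb1, Psmb2, Psmb7, Psmc3, Psmd3 and Psmd7. The ETS letters occurred in 15 of the 38 (39.5%), against 8.86% of the 32851 promoters of the table. These 15 belong to 14 genes, among them Psmc3ip and Psme3ip1, which encode no subunit. The antioxidant response element core occurred in 6 (15.8%, against 12.4%), those of Psmb5, Psmb6, Psmc6, Psmd9, Psmd12 and Psme4. CCAAT occurred in 15 (39.5%, against 37.4%) and TATAAA in 3 (7.89%, against 13.6%). No 2 of these motifs overlap in the sequences shown, and a match describes letters, not a bound site.

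By particle, the LPS/LPS vs LPS medians were -0.32 for the core (12 of 15 below 0) and -0.31 for the regulatory particle (17 of 20 below 0). Without LPS replicate 3 the core median was -0.06 (13 of 15 below 0) and the regulatory median -0.28 (16 of 20 below 0). The size of the core median thus rested on that array, while its sign did not. The regulatory size rested on it much less. Among all members 31 of 41 (75.6%, against 43.0% of all genes) were below 0 without that array, with a median of -0.20. At an unadjusted p under 0.05, 5 members in place of 9 were then lower (12.2%, against 3.49% of all genes). All 6 ATPases had negative differences, from -0.70 to -0.20, and also without LPS replicate 3. The lid and scaffold genes with an unadjusted p under 0.05, beside Psmd11, were Psmd2, a scaffold of the base (-0.44, SE 0.16, limma adjusted p = 0.467), and Psmd8 (-0.60, SE 0.25, limma adjusted p = 0.506). So was the ubiquitin receptor gene Psmd4 (-0.49, SE 0.17, limma adjusted p = 0.449). Without LPS replicate 3 the differences were -0.33 for Psmd2, -0.29 for Psmd8 and -0.53 for Psmd4. Psmd2 and Psmd8 then no longer had an unadjusted p under 0.05, while Psmd4 did. The difference of Psmd3 was close to 0, at -0.00 (SE 0.12, limma adjusted p = 0.998). In the alpha ring, Psma2 differed by -0.64 (SE 0.28, limma adjusted p = 0.542) and Psma3 by -0.58 (SE 0.28, limma adjusted p = 0.584), the latter by -0.20 without LPS replicate 3. The core median minus the regulatory median was -0.02, and 0.21 without LPS replicate 3.

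**Figure D4:**
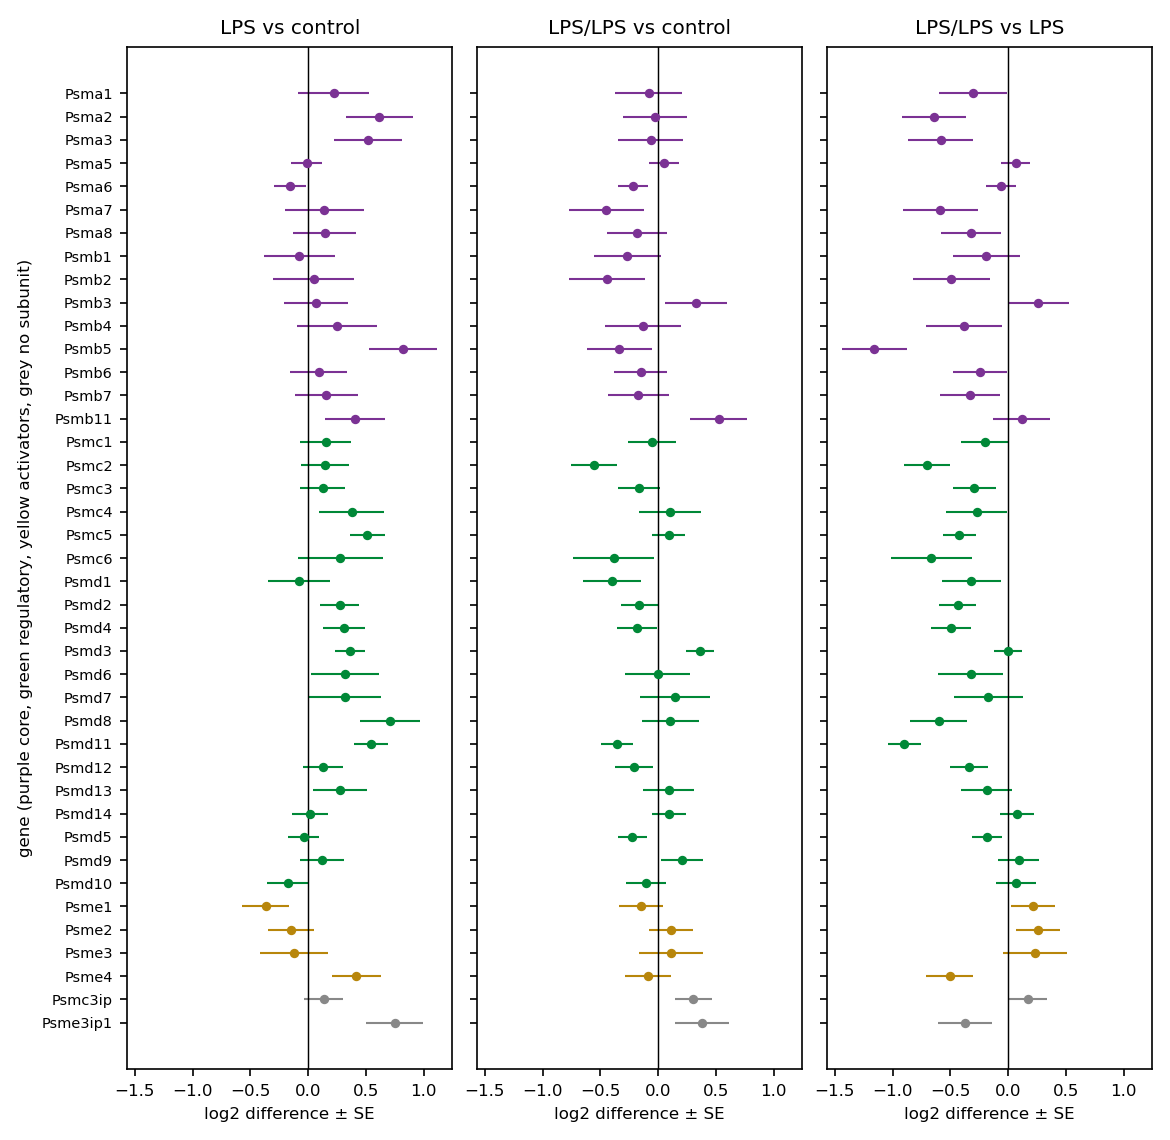
Log2 difference ± SE from limma for each of the 41 genes (y axis) in the 3 comparisons (panels), coloured by particle. Points lie mostly right of 0 in LPS vs control (32 of 41) and mostly left of 0 in LPS/LPS vs LPS (31 of 41), 2 comparisons that share the LPS arrays. Of all points Psmd11 in LPS/LPS vs LPS was the only one past the adjusted threshold.

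The arrays were also split at the median of their overall spread. The wide class held the 7 arrays with an SD of all values at or above the median of 1.35, and the narrow class the 6 below it. These SDs ran from 1.28 to 1.42, and the labels do not explain them. Of the LPS arrays only replicate 1 was in the narrow class, so the narrow values below rest on 1 array. LPS replicate 3 was in the wide class, and wide values without it are not given. Differences between the classes therefore cannot be told apart from differences due to that array. Within the wide class Psmd11 differed by -0.97 in LPS/LPS vs LPS (2 against 3 arrays) and within the narrow class by -0.78 (3 against 1). Psmb5 differed by -1.74 and -0.16. The core median was -0.58 in wide and -0.13 in narrow arrays, and the regulatory median -0.35 and -0.01. The regulatory median was thus near 0 in narrow arrays, and the Psmb5 and core values were smaller in size there than in wide arrays. Member by member, 20 of 41 were negative in both classes, 2 positive in both and 19 changed sign, Psma2 among them (-1.15 and 0.16). In LPS vs control, the median of all members was 0.18 within the wide class and -0.00 within the narrow one, that of the core 0.15 and -0.10, and 20 of 41 members changed sign.

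The last question is how S1 segments after both doses compare with those given saline. The members were close to control: the median difference was -0.09, against 0.03 for all genes, and 26 of 41 (63.4%) were below 0, against 44.2%. The 16 S1 and S2 markers had a median of -0.58 in this comparison, with 1 above 0. By limma 0 members passed the threshold, of 2 genes called (0.00902%). At an unadjusted p under 0.05 there were 2 members lower, Psmc2 and Psmd11 (4.88%, against 2.07% of all genes), and 1 higher, Psmd3 (2.44%, against 2.62%). No member had groups apart in either direction, where 0.839% of all genes were higher and 0.699% lower without overlap. Each of these shares rests on 1 or 2 genes.

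In that comparison Psmc2 differed by -0.56 (SE 0.20, limma adjusted p = 0.987), but its second probe set by 0.13. Psmd11 differed by -0.36 (SE 0.14, limma adjusted p = 0.987) and Psmd3 by 0.36 (SE 0.12, limma adjusted p = 0.987). The core median was -0.15, with 12 of 15 below 0, and the regulatory median -0.08, with 12 of 20. The catalytic genes Psmb5 (-0.33, SE 0.28), Psmb6 (-0.15, SE 0.23) and Psmb7 (-0.17, SE 0.26) had limma adjusted p-values of 0.987, 0.991 and 0.991. Without LPS/LPS replicate 5, its lowest array, Psmb5 differed by -0.15. The intervals implied by these errors are wide, so small changes of either sign could not be seen with this number of arrays.

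The core genes with the lowest p here were a thymus form and 2 alpha ring genes. Psmb11, the beta subunit of the thymus, read 2.96, 3.27, 2.99 and 3.84 in control, 4.01, 3.77, 3.18 and 3.71 in LPS and 4.25, 3.72, 3.83, 3.11 and 4.04 in LPS/LPS. Its difference was 0.53 (SE 0.25, limma adjusted p = 0.987), at a level below the olfactory receptor reference. Psma6 read 4.21, 4.01, 4.55 and 4.40 in control, 4.18, 4.18, 4.20 and 3.98 in LPS and 4.20, 4.18, 4.09, 3.95 and 3.96 in LPS/LPS. That gene differed by -0.22 (SE 0.13, limma adjusted p = 0.987), with overlap. Psma7 read 5.65, 5.29, 4.45 and 4.56 in control, 5.53, 4.69, 5.74 and 4.56 in LPS and 4.59, 4.85, 5.10, 4.32 and 3.84 in LPS/LPS. Its difference of -0.45 (SE 0.32, limma adjusted p = 0.987) left the groups overlapping.

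The activators bind the ends of the core in place of the regulatory particle. Their median difference was -0.13 in LPS vs control and 0.23 in LPS/LPS vs LPS, over 4 genes. Psme1 and Psme2 encode the interferon-inducible activator PA28. Psme1 read 5.62, 5.87, 5.91 and 5.80 in control, 5.84, 5.53, 5.50 and 4.85 in LPS and 5.68, 5.87, 5.48, 5.93 and 5.27 in LPS/LPS. Psme2 read 6.11, 6.64, 6.89 and 6.03 in control, 6.38, 6.40, 6.21 and 6.12 in LPS and 6.91, 6.64, 6.43, 6.45 and 6.23 in LPS/LPS. On average LPS was not above control, with differences of -0.37 (SE 0.20, limma adjusted p = 0.779) and -0.14 (SE 0.20, limma adjusted p = 0.916). LPS replicate 4 was the lowest array of Psme1, and without it the Psme1 difference was -0.17.

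Psme3, of the nuclear PA28 gamma, read 3.57, 3.69, 4.13 and 3.55 in control, 3.74, 3.71, 3.58 and 3.43 in LPS and 3.16, 3.66, 3.73, 5.00 and 3.66 in LPS/LPS, with LPS/LPS replicate 4 above all others (without it, the difference of LPS/LPS from LPS was -0.06). Psme4, of the activator PA200, read 3.37, 3.01, 2.95 and 3.13 in control, 3.05, 3.14, 3.88 and 4.06 in LPS and 3.12, 3.14, 2.77, 2.95 and 3.16 in LPS/LPS, where LPS replicates 3 and 4 were high. Psme4 differed by 0.42 (SE 0.21, limma adjusted p = 0.774) in LPS vs control and by -0.50 (SE 0.20, limma adjusted p = 0.498) in LPS/LPS vs LPS. Without LPS replicate 3 these Psme4 differences were 0.30 and -0.39. Against LPS, in LPS/LPS, Psme1 (0.22), Psme2 (0.26) and Psme3 (0.23) had positive differences with limma adjusted p-values of 0.78, 0.729 and 0.854. Without LPS replicate 4 the difference of Psme1 was 0.02. From control, the 4 activators Psme1 to Psme4 differed in LPS/LPS by -0.15, 0.11, 0.11 and -0.09, and none passed.

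The immunoproteasome genes, whose products replace Psmb5, Psmb6 and Psmb7, were compared as other genes of the pathway. Psmb8 differed in LPS vs control by 0.12 (SE 0.16, limma adjusted p = 0.915), Psmb9 by -0.21 (SE 0.21, limma adjusted p = 0.885) and Psmb10 by 0.19 (SE 0.17, limma adjusted p = 0.874). Psmb8, the counterpart of Psmb5, read 4.97, 5.32, 5.16 and 4.99 in control, 5.41, 5.25, 5.31 and 4.94 in LPS and 5.16, 5.36, 5.19, 5.23 and 4.72 in LPS/LPS, all overlapping. Between LPS and LPS/LPS the 3 genes differed by -0.10, 0.05 and -0.29, and in LPS/LPS vs control by 0.02, -0.15 and -0.10, none past the threshold.

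Nfe2l1, which encodes NRF1, read 4.51, 4.45, 4.71 and 4.51 in control, 4.07, 4.51, 4.86 and 4.66 in LPS and 4.59, 4.51, 4.51, 4.51 and 4.01 in LPS/LPS, with 1 identical value on 6 arrays. Its difference from control was -0.02 (SE 0.18) in LPS and -0.12 (SE 0.17) in LPS/LPS, and that between LPS and LPS/LPS was -0.10 (SE 0.17), with limma adjusted p-values of 0.985, 0.991 and 0.905. RNA levels do not measure the cleavage of the NRF1 protein that activates it.

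Of 44 symbols listed for assembly, the immunoproteasome, associated proteins, transcription and ubiquitin shuttling, 33 were measured. By limma 0 passed the threshold in any comparison. At an unadjusted p under 0.05 there were 0 against control in either treated group and 1 lower in LPS/LPS than in LPS (3.03%, against 4.49% of all genes), Txnl1, a thioredoxin-like protein bound to the cap. Of all genes, 3.49% were higher and 2.95% lower in LPS than in control, and 2.62% and 2.07% in LPS/LPS. Their median was 0.01 in LPS vs control, where that of the proteasome genes was 0.15, and -0.07 in LPS/LPS vs control. Between LPS and LPS/LPS it was -0.09, where that of the proteasome genes was -0.30, and no difference between the lists was tested. Txnl1 read 4.50, 3.99, 4.94 and 3.96 in control, 4.16, 4.37, 6.55 and 5.06 in LPS and 4.04, 4.67, 4.06, 3.80 and 3.67 in LPS/LPS, highest in LPS replicate 3, with differences of 0.69 (SE 0.42, limma adjusted p = 0.805) in LPS vs control and -0.99 (SE 0.40, limma adjusted p = 0.504) in LPS/LPS vs LPS. Sem1, a small cap subunit outside the symbol rule, had the lowest p in LPS/LPS vs control (-0.99, SE 0.48, limma adjusted p = 0.987).

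Shifts of the same sign occurred outside the proteasome. In LPS vs control the median was 0.12 over 67 cytosolic ribosomal protein genes and 0.10 over 47 translation initiation factor genes, against 0.15 over the proteasome genes. Without LPS replicate 3 they were -0.12, 0.04 and 0.04, so the ribosomal one turned negative. For LPS/LPS against LPS the medians were -0.36, -0.16 and -0.30 in that order, and -0.17, -0.09 and -0.20 without that array. The ribosomal median of -0.26 in LPS/LPS vs control was the furthest from 0 of the 3 lists there, where the proteasome genes had -0.09 and the initiation factors -0.05. In LPS vs control, 4.48% of ribosomal and 12.8% of initiation factor genes were higher at an unadjusted p under 0.05, against 14.6% of members. In LPS/LPS vs LPS the shares lower were 25.4%, 17% and 22.0% in that order, and 13.4%, 10.6% and 12.2% without LPS replicate 3. Groups lay apart, lower in LPS/LPS than in LPS, for 7.46%, 2.13% and 9.76%. Nothing here was tested between the lists.

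The genes that fit the rule by letters only were Psmc3ip, of meiotic recombination, and Psme3ip1, of a protein that binds PA28 gamma. Psme3ip1 read 5.20, 4.45, 4.63 and 4.92 in control, 5.20, 6.28, 5.20 and 5.52 in LPS and 5.50, 5.30, 4.72, 5.11 and 5.26 in LPS/LPS, and 3 arrays share a value. It differed by 0.75 (SE 0.25, limma adjusted p = 0.601) in LPS vs control. Psmc3ip differed from control by 0.13 in LPS and by 0.31 in LPS/LPS, and by 0.17 between LPS and LPS/LPS. The members not named with values had adjusted p-values above the threshold in all comparisons.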

How the data were processed

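The values deposited by the authors are on the log2 scale, 1 for each of 41345 probe sets on 13 arrays. Extraction used the PicoPure kit and labelling the Affymetrix WT Pico method with 2 ng of RNA, per the labels' protocols. The submitters' processing notes name RMA and Partek 6.6. The background step and normalization are not stated there, and the build is not given in the sources used here. RMA summarises a probe set into 1 log2 value, and remaining background compresses changes of dim genes.

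Probe sets with 1 symbol in the platform annotation (23521) were kept, those with several (1814) or none (16010) were not, and the probe set with the highest mean represented each of 22180 genes. limma 3.58.1 (R 4.3.3, lmFit and eBayes) was fitted to all arrays without covariates, with Benjamini-Hochberg adjustment, and was tested on simulated data. Medians over the members are descriptions without a test.

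The members, lists and the olfactory receptor reference were chosen with earlier results of these data known. Members named with values were the catalytic genes, the activators, the 3 core and 3 regulatory genes with the lowest p in each comparison, those whose groups did not overlap, and the members of highest and lowest level. Psmb2, Psmd2, Psmd4, Psmd8, Psmd5, Psmd9, Psmd10, Psmc3ip and Psme3ip1 were added after their values were seen. Alternatives varied the probe set rule, filter, scaling, weights, moderation, blocks and arrays. Array-to-array correlations across genes were 0.747 to 0.906, with no duplicate arrays.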

Additional observations from a re-analysis of the deposited data

Results flagged for a closer look

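In 63 groups of arrays examined, 4 held an array whose gap to the nearest other exceeded Dixon's critical value. Chance gives about 1 in 20 groups, or 3.15 of 63. Psmb5 was low in LPS/LPS replicate 5 (4.31, others 5.12 to 5.43), the array that held the lowest value of 8 members, and without it the Psmb5 difference was -0.15 from control and -0.97 from LPS. Psma2 was low in LPS replicate 1 (4.41, others 5.17 to 5.23). Psma3 was low in control replicate 1 (3.00, others 3.21 to 3.22), a group in which 2 arrays share 1 value. Psma6 was low in LPS replicate 4 (3.98, others 4.18 to 4.20).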

How the results depend on the processing

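The members called numbered 0 in LPS vs control and in LPS/LPS vs control under every one of the 25 alternatives run. In LPS/LPS vs LPS the 1 call, Psmd11, became 0 over all probe sets (adjusted p = 0.0845), with only the 2 groups compared (0.143), with the replicate number as a block (0.156) and without moderation (0.198). It was also 0 among genes above the olfactory receptor reference, where Psmd11 was not tested. Leaving out 1 array gave 0 to 2 members called, the 2 being Psmd11 and Psmb5 without LPS replicate 1. All these alternatives kept the negative sign of Psmd11, where it was tested.

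All genes called in LPS vs control (0) became 9 above the median level, 3 above the reference, 5 with quantile normalization, 30 with array weights, 7 with trend and robust moderation and 3 with the replicate block. In LPS/LPS vs control (2) they became 1 above the median level, 0 over all probe sets, 4 with quantile normalization, 1 with arrays centred, 0 with 2 groups, 0 with the replicate block, 4 with array spread class as a block and 0 without moderation. In LPS/LPS vs LPS (14) they became 7 over all probe sets, 9 with quantile normalization, 41 with array weights, 2 with 2 groups, 4 with the replicate block and 0 without moderation. Leaving out 1 array gave 0 to 24, 0 to 3 and 5 to 96 genes in that order of comparisons, the 24 and the 96 without LPS replicate 1 and the 5 without LPS/LPS replicate 2. No steady pairing by replicate number was seen: correlations of same-numbered deviations ran from -0.351 to 0.215. So few arrays cannot exclude a pairing.

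The median of the members ran, on leaving out 1 array, from 0.04 to 0.24 in LPS vs control, -0.13 to -0.03 in LPS/LPS vs control and -0.34 to -0.20 in LPS/LPS vs LPS. Among genes above the reference, 12 members, it was 0.10 in LPS/LPS vs control. The core minus regulatory median ran from -0.15 to 0.12, -0.13 to 0.02 and -0.13 to 0.21, so it had no stable sign. In LPS/LPS vs control it was -0.25 above the median level and -0.40 above the reference. Of 960 values of named members under the alternatives, 944 either kept their call or stayed uncalled and moved by less than 1 SD. Of the rest, 13 lost the Psmd11 call, 1 gained a call and 2, both Psmc2 averaged over its probe sets (-0.21 in LPS/LPS vs control and -0.27 in LPS/LPS vs LPS), moved by more. Among the 944, 14 had the other sign, none of them past the threshold: they belong to Psmd14, Psmb6, Psmb7, Psme2 and Psme3. Weak signal limits most members, since 29 of 41 lay below the reference.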
